A study of Mus musculus with 7 samples.

Results

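The 9 genes of the Myc, Max and Mxd network, namely Myc, Mycn, Mycl, Max, Mnt, Mxd1, Mxd3, Mxd4 and Mxi1, were taken by name from the 32286 features counted in 7 droplet libraries of mouse double-negative (DN) thymocytes. Their levels were read in each library, in the barcodes counted as thymocytes, and separately in cycling and non-cycling barcodes. A thymocyte barcode held at least 200 detected genes, at most 15% mitochondrial UMIs and at most 1 UMI of the B cell genes Cd79a, Cd79b and Ms4a1. A cycling barcode held at least 2 UMIs of Mki67 and Top2a together, 2 genes of dividing cells, and a non-cycling barcode held 0. The members were taken by name, with no threshold on their levels.

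The 5 WT libraries came from C57BL/6 thymi of females and males aged 6 to 8 weeks, which were pooled, depleted of CD4+ and CD8+ cells with beads and sorted into DN3a cells, the γδ- subsets DN3b γδ- and DN4 γδ-, and the γδ+ subsets DN3b γδ+ and DN4 γδ+. The other 2 libraries were DN3 γδ- and DN3 γδint cells of C57BL/6 mice with the genotype Lat-/-TCRd-H2BEGFP, which lack the adaptor LAT and carry a reporter of TCRδ that is not named for the WT mice; bead depletion is given for the WT samples only. The age of the Lat-/- mice was not given in the sources used here. DN3b γδ- cells follow pre-TCR signalling and DN3b γδ+ cells follow γδ TCR signalling, whereas γδint cells have an intermediate surface level of the γδ TCR in the absence of LAT. CD71, the transferrin receptor, was among the markers of the sort, and each library received 500 splenic B cells as an internal standard. There was 1 library per group, which leaves differences between groups untested, and every interval given is a 95% interval for counting error only. Levels are given as CPM, the UMIs of a gene divided by all UMIs of the barcodes and scaled to 1000000, and compare 1 gene between libraries. In such sums fewer expressing cells and less RNA per cell cannot be told apart.

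The network is built around Max, a small basic helix-loop-helix leucine zipper protein that pairs with either activators or repressors and binds E-box DNA. Myc, Mycn and Mycl pair with Max to activate genes of ribosome production, metabolism and growth, whereas Mnt and the Mxd proteins (Mxd1, Mxi1, Mxd3 and Mxd4) pair with Max and recruit Sin3 corepressor complexes to the same sites. In thymocytes Myc is known for its part in the proliferative burst that follows pre-TCR signalling, and Mxd proteins are best known from cells that leave the cycle, with Mxd3 as the member described in S phase.

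On GRCm38, Myc (ENSMUSG00000022346) lies on the plus strand at chr15:61985391-61990374, and Mycn (ENSMUSG00000037169) lies on the minus strand at chr12:12936093-12941914. Mycl (ENSMUSG00000028654) spans chr4:122995652-123002485 on the plus strand, and Max (ENSMUSG00000059436) spans chr12:76937269-76962201 on the minus strand, where it overlaps the gene model Gm47218 on the same strand. Among the repressors, Mnt (ENSMUSG00000000282) is at chr11:74830920-74845725 on the plus strand and Mxd1 (ENSMUSG00000001156) at chr6:86647042-86669161 on the minus strand, overlapping Gm44292 on the same strand. Mxd3 (ENSMUSG00000021485) is at chr13:55325168-55329823 on the minus strand and overlaps Prelid1 on the other strand. Mxd4 (ENSMUSG00000037235) is at chr5:34173883-34187720 on the minus strand and overlaps Gm42846 on the other strand. Mxi1 (ENSMUSG00000025025) is at chr19:53310518-53375810 on the plus strand and overlaps Gm10197 and AC133451.2 on the other strand. All 9 are protein-coding genes in GENCODE vM21. How reads shared between Max or Mxd1 and the overlapping model were assigned was not given in the sources used here.

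The promoters of Mxd3 and Mxd4 are shown because these 2 genes differed in opposite directions between cycling and non-cycling barcodes in every library in CPM (per barcode, Mxd4 in 6 of 7), and that of Mycn because, of the 8 members with a window, it was the one that held the second motif searched. The windows run from 250 bases before to 50 after the RefSeq start, on GRCm38.p6, and 8 of the 9 members, all but Myc, had at least 1 window. Capitals mark the E-box CACGTG or the E2F-type octamers TTTGGCGC and TTTCGCGC, searched on both strands. The windows lie at chr13:55329682-55329981, chr5:34187661-34187960 and chr12:12941787-12942086, all on the minus strand.
Mxd3: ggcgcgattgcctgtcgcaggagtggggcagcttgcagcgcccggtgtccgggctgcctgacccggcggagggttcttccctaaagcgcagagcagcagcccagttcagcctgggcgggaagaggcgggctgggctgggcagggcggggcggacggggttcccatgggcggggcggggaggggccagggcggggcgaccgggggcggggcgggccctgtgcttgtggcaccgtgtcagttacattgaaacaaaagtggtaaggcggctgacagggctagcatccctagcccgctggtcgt
Mxd4: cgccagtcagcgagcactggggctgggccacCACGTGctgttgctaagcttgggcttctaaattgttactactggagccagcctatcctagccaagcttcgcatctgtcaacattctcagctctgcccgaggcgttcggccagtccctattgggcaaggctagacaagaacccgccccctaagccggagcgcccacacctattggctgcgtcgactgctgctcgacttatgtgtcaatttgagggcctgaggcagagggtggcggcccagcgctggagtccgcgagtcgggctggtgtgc
Mycn: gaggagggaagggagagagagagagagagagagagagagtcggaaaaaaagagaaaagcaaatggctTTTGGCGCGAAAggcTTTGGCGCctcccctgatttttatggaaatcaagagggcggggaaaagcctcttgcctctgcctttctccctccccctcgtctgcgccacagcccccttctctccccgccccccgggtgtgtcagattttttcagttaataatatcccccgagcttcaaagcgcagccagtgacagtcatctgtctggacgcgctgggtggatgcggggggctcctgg
The Mxd4 window held 1 E-box, starting at position -219, and neither motif was found in the Mxd3 window. Max and Mnt each held 1 E-box as well, at -3 and -123. The Mycn window held 3 octamers, starting at -183, -179 and -168, of which the second is read on the other strand and overlaps the first. Of 32841 mouse promoter windows of this length, 7.15% held CACGTG and 0.813% held an octamer. A match is only a run of letters in the window.

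The libraries held 5274 to 18515 thymocyte barcodes with a median of 5737.5 to 18506 UMIs. Cycling barcodes made up 6.16% of DN3a, 88.4% of DN3b γδ-, 80.8% of DN3b γδ+, 83.6% of DN4 γδ-, 18.4% of DN4 γδ+, 8.87% of Lat-/- DN3 γδ- and 23.3% of Lat-/- DN3 γδint barcodes. Barcodes with at least 4000 UMIs were also thinned to 4000 UMIs, and shallower ones were left out, here and wherever thinned shares are given below. This kept, for example, 6934 of 8703 barcodes in DN4 γδ+ and 4537 of 5274 in Lat-/- DN3 γδint. The shares were then 2.34% in DN3a, 60.7% to 70.0% in DN3b γδ-, DN3b γδ+ and DN4 γδ-, and 15.2% in DN4 γδ+. In the 2 Lat-/- libraries they were 4.52% and 19.4%. Lat had 357 to 648 CPM in the WT libraries and 4.83 and 0.899 CPM in the 2 Lat-/- libraries. All 6 T cell markers were detected in every library, with a summed level of 1964 to 10045 CPM, whereas the 5 B cell markers summed to 18.3 to 66.1 CPM, the 5 myeloid markers to 98.1 to 189 CPM, the 4 plasmacytoid markers to 168 to 650 CPM and the 3 NK markers to 0 to 9.82 CPM. Erythroid markers summed to 0.168 CPM in DN3a and up to 170 CPM in DN4 γδ-. Of the 4 plasmacytoid markers 1 had 0 UMIs in DN3a, the library with the sum of 650 CPM, and 1 in DN4 γδ+. In the remaining libraries all 4 were detected. Which cells these marker UMIs came from was not tested. The part of other cell types in the values below was not tested beyond the strict barcode rule given in the closing section. Ribosomal-protein genes took 18.2% of the thymocyte UMIs of Lat-/- DN3 γδint, against 27.7% to 33.8% in the other 6 libraries, and its B-like barcodes, those with at least 10 UMIs of the 3 B cell genes, held 19.1% against 28.9% to 34.8%. Of 89086 distinct barcode sequences, 925 occurred in 2 or more libraries.

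Myc was highest in DN3a and lowest in DN4 γδ+. Its level was 97.3 CPM (94.7 to 99.97) in DN3a, 51.3 in DN3b γδ-, 30.8 in DN3b γδ+, 71.6 in DN4 γδ-, 19.7 (18.7 to 20.8) in DN4 γδ+, 55.0 in Lat-/- DN3 γδ- and 72.3 in Lat-/- DN3 γδint. In rising order the libraries were DN4 γδ+, DN3b γδ+, DN3b γδ-, Lat-/- DN3 γδ-, DN4 γδ-, Lat-/- DN3 γδint and DN3a, and of neighbours in that order only the intervals of DN4 γδ- (70.5 to 72.6) and Lat-/- DN3 γδint (69.6 to 75.02) overlapped. With barcodes thinned to 4000 UMIs, 28.8% of DN3a, 18.4% of DN3b γδ-, 11.2% of DN3b γδ+, 22.9% of DN4 γδ-, 6.40% of DN4 γδ+, 19.0% of Lat-/- DN3 γδ- and 24.7% of Lat-/- DN3 γδint barcodes held a Myc UMI. The shares put the 7 libraries in the same order as the CPM.

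The order of Myc between libraries depended on whether the level was taken as CPM or per barcode, since mean UMIs per thymocyte barcode ranged from 7171 in Lat-/- DN3 γδint to 18809 in DN4 γδ-. Per barcode, Myc was at 0.767 UMIs in DN3a, 0.938 in DN3b γδ-, 0.488 in DN3b γδ+, 1.35 in DN4 γδ-, 0.158 in DN4 γδ+, 0.428 in Lat-/- DN3 γδ- and 0.518 in Lat-/- DN3 γδint. DN3b γδ- was thus below DN3a in CPM, with a log2 ratio of -0.92 (-0.97 to -0.88), and above it per barcode, with a log2 ratio of 0.29. Dividing further by the mean UMIs of the B-like barcodes with at most 2 UMIs of Cd3d, Cd3e and Cd3g gave 0.84. DN4 γδ+ was the lowest library on both scales.

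**Figure D1:**
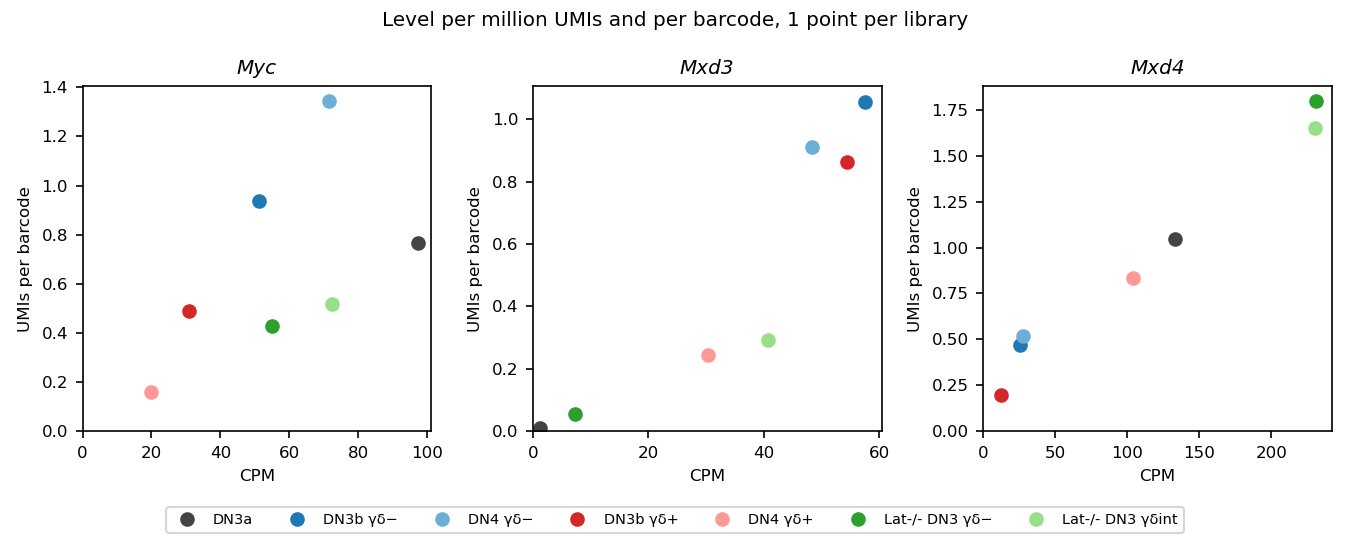
UMIs per thymocyte barcode (vertical axis) against CPM (horizontal axis) for Myc, Mxd3 and Mxd4, with 1 point per library and colours for the libraries. For Myc, DN3a is farthest right at 97.3 CPM but lies below DN3b γδ- and DN4 γδ- per barcode, whereas for Mxd3 and Mxd4 the libraries with the highest CPM also have the most UMIs per barcode.

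Mycn, a Myc paralogue used early in development, was 9.64 CPM in the DN3a library, 0.889 in DN3b γδ-, 4.19 in DN3b γδ+, 0.879 in DN4 γδ-, 3.49 in DN4 γδ+, 13.8 in Lat-/- DN3 γδ- and 11.7 in Lat-/- DN3 γδint. It was lowest in the 2 γδ- libraries past DN3a, and the 3 DN3 libraries that were mostly non-cycling held the most. At 4000 UMIs per barcode a Mycn UMI was found in 4.04% of DN3a, 0.487% of DN3b γδ-, 1.73% of DN3b γδ+, 0.491% of DN4 γδ-, 1.21% of DN4 γδ+, 5.09% of Lat-/- DN3 γδ- and 4.87% of Lat-/- DN3 γδint barcodes. The same B-like barcodes, at median depths of 2416 to 3747 UMIs, held 0 or 1 Mycn UMI per library. Mycl was near the detection limit, with 0 to 14 UMIs per library, and 0 of 50305978 UMIs in Lat-/- DN3 γδ- allows up to 0.0596 CPM.

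Max, the shared partner, ranged over 1.89-fold between the highest and the lowest library in CPM, the narrowest range of the 8 members other than Mycl on that scale over all barcodes. Per barcode it ran from 0.370 to 1.06 UMIs, a wider range than that of Mnt (0.139 to 0.211), and in non-cycling barcodes its CPM ranged over 2.19-fold against 2.08-fold for Mnt. It was 48.8 CPM in the DN3a library, 58.2 in DN3b γδ-, 46.6 in DN3b γδ+, 46.7 in DN4 γδ-, 46.1 in DN4 γδ+, 79.1 in Lat-/- DN3 γδ- and 87.2 in Lat-/- DN3 γδint. The 5 WT libraries lay between 46.1 and 58.2 CPM and both Lat-/- libraries lay above them. Max was also higher in these B-like barcodes of the Lat-/- libraries, at 75.4 and 89.5 CPM against 37.6 to 65.7 CPM in the WT libraries, from 16 to 49 UMIs each. The log2 ratio of Lat-/- DN3 γδ- over DN3a was 0.70 (0.63 to 0.77) in thymocyte barcodes. It was 1.005 (0.17 to 1.92) in the B-like barcodes with at most 2 Cd3 UMIs. The part of a shift common to all cells of a library was not tested.

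**Figure D2:**
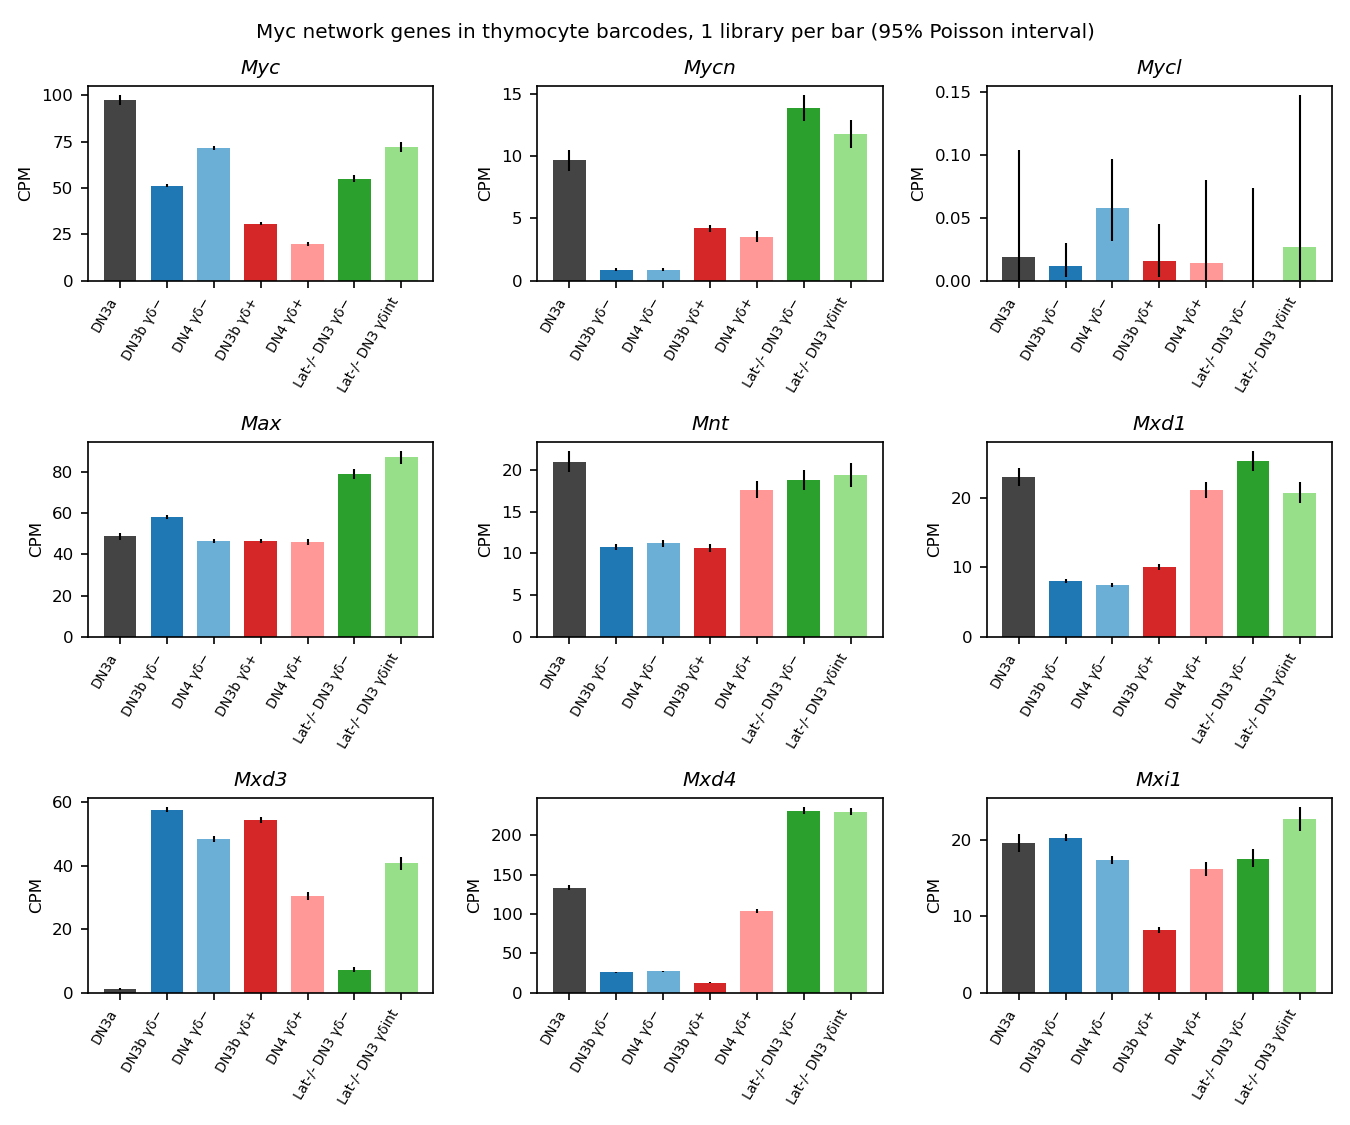
Level of each member in CPM (vertical axes, which differ between panels) in the thymocyte barcodes of the 7 libraries (horizontal axes), with bars for the level and black lines for the 95% Poisson interval. Myc and Mycn are high in DN3a, Mxd3 is at 1.15 CPM there and between 48.4 and 57.6 CPM in DN3b γδ-, DN4 γδ- and DN3b γδ+, and Mxd4 has the reverse pattern.

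Of the repressors, Mxd3 and Mxd4 varied most between libraries, and in opposite directions. Mxd3 was 1.15 CPM (0.885 to 1.48) in the DN3a library, 57.6 in DN3b γδ-, 54.4 in DN3b γδ+, 48.4 in DN4 γδ-, 30.4 in DN4 γδ+, 7.28 in Lat-/- DN3 γδ- and 40.8 in Lat-/- DN3 γδint. Mxd4 was 133 CPM in the DN3a library, 25.6 in DN3b γδ-, 12.6 in DN3b γδ+, 27.5 in DN4 γδ-, 104 in DN4 γδ+, 231 in Lat-/- DN3 γδ- and 230 in Lat-/- DN3 γδint. Mxd3 was thus high in the 3 mostly cycling libraries, where Mxd4 was low. Lat-/- DN3 γδint, with 23.3% of barcodes cycling, held much of both.

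Mnt and Mxd1 were low in the same libraries as Mxd4, over a narrower range. Mnt was 21.0 CPM in the DN3a library, 10.7 in DN3b γδ-, 10.6 in DN3b γδ+, 11.2 in DN4 γδ-, 17.6 in DN4 γδ+, 18.8 in Lat-/- DN3 γδ- and 19.4 in Lat-/- DN3 γδint. Mxd1 was 23.0 CPM in the DN3a library, 7.99 in DN3b γδ-, 10.0 in DN3b γδ+, 7.45 in DN4 γδ-, 21.1 in DN4 γδ+, 25.3 in Lat-/- DN3 γδ- and 20.7 in Lat-/- DN3 γδint. Both were lowest in the 3 mostly cycling libraries in CPM, whereas per barcode Mnt ranged only from 0.139 to 0.211 UMIs and Mxd1 from 0.140 to 0.197 UMIs. Mxi1 was low in a single library, DN3b γδ+, in CPM. Its level there was 8.21 CPM (7.82 to 8.62), against 19.6 in the DN3a library, 20.3 in DN3b γδ-, 17.3 in DN4 γδ-, 16.2 in DN4 γδ+, 17.6 in Lat-/- DN3 γδ- and 22.7 in Lat-/- DN3 γδint. Per barcode DN4 γδ+ was as low as DN3b γδ+, both at 0.130 UMIs.

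The makeup of the summed 5 repressors differed more between libraries than their sum. Their summed level was 197.9 CPM in DN3a, 122 in DN3b γδ-, 95.9 in DN3b γδ+, 112 in DN4 γδ-, 189 in DN4 γδ+, 300.3 in Lat-/- DN3 γδ- and 334 in Lat-/- DN3 γδint. Mxd3 made up 0.583% of the repressor UMIs in DN3a, 47.1% in DN3b γδ-, 56.7% in DN3b γδ+, 43.3% in DN4 γδ-, 16.1% in DN4 γδ+, 2.42% in Lat-/- DN3 γδ- and 12.2% in Lat-/- DN3 γδint. Mxd4 made up 67.3% in DN3a, 13.2% to 24.5% in the 3 mostly cycling libraries, 55.0% in DN4 γδ+, 77.1% in Lat-/- DN3 γδ- and 68.9% in Lat-/- DN3 γδint. These shares compare libraries with each other and are not relative amounts of the proteins.

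Myc relative to the summed repressors, a ratio of UMIs within a library that no scaling of the library changes, was 0.492 (0.476 to 0.508) in DN3a, 0.420 (0.412 to 0.427) in DN3b γδ-, 0.321 (0.312 to 0.331) in DN3b γδ+, 0.640 (0.628 to 0.652) in DN4 γδ-, 0.104 (0.0984 to 0.110) in DN4 γδ+, 0.183 (0.176 to 0.191) in Lat-/- DN3 γδ- and 0.217 (0.208 to 0.226) in Lat-/- DN3 γδint. No 2 intervals overlapped. Over all barcodes the ratio was highest in DN4 γδ- and lowest in DN4 γδ+, and both Lat-/- DN3 libraries lay below DN3a. The order changed within state. In cycling barcodes DN3a was highest, at 0.797 (0.711 to 0.894), ahead of DN4 γδ- (0.642), DN3b γδ- (0.417) and DN3b γδ+ (0.306). In non-cycling barcodes DN4 γδ- was at 0.516 (0.459 to 0.580), DN3b γδ+ at 0.465 (0.400 to 0.538), DN3a at 0.460 (0.442 to 0.478) and DN3b γδ- at 0.407 (0.365 to 0.454), and the interval of DN3b γδ+ overlapped those of the other 3. DN4 γδ+ was lowest in both states, at 0.129 and 0.0946, and both Lat-/- DN3 libraries lay below DN3a in both.

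**Figure D3:**
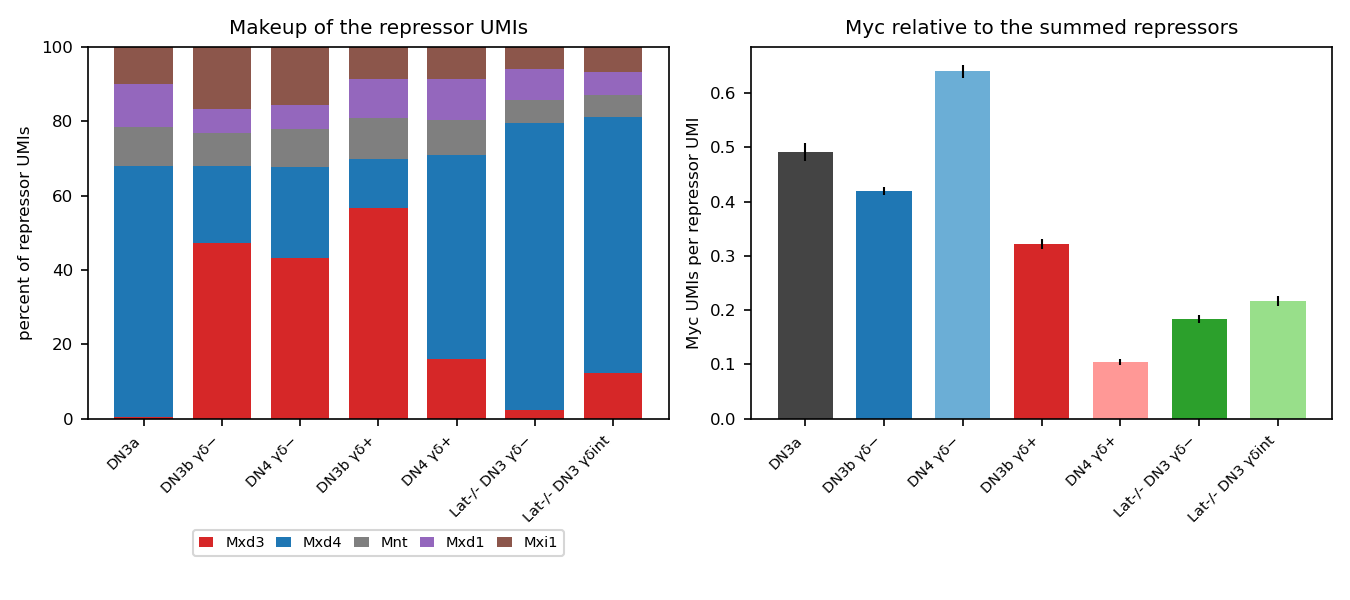
Left, the percent of the repressor UMIs of each library that came from Mxd3, Mxd4, Mnt, Mxd1 and Mxi1 (stacked bars, summing to all repressor UMIs). Right, Myc UMIs per repressor UMI with the 95% counting interval as black lines, with 0.640 in DN4 γδ- as the highest bar and 0.104 in DN4 γδ+ as the lowest.

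Pre-TCR signalling is the step between DN3a and DN3b γδ-. In CPM 1 of 9 members was at least 2-fold higher in DN3b γδ- and 3 were at least 2-fold lower, where 9.73% and 28.8% of all 16549 genes compared were. Mxd3 was 49.9-fold higher, with a log2 ratio of 5.64 (5.28 to 6.03). Mycn was 10.9-fold lower (log2 ratio -3.44, -3.65 to -3.23), Mxd4 5.20-fold lower (-2.38) and Mxd1 2.88-fold lower (-1.53). Mnt at -0.97, Max at 0.25 and Mxi1 at 0.05 stayed within 2-fold in CPM. The median over all genes was -0.33. The libraries were 88.4% and 6.16% cycling, and in cycling barcodes alone Mxd3 was 5.68-fold higher (2.51, 2.13 to 2.91). Within state Mycn stayed past 2-fold, at -2.44 in cycling and -3.25 in non-cycling barcodes. Mxd4 was at -1.45 and -0.66, so its difference passed 2-fold in cycling barcodes only, and Mxd1 was at -0.89 and -0.94, within 2-fold in both. Per barcode Mxd3 (6.86), Max (1.47) and Mxi1 (1.27) were at least 2-fold higher and Mycn (-2.22) and Mxd4 (-1.16) lower. These were 3 and 2 of 9 members, against 45.1% and 8.70% of genes on that scale. Relative to B-like barcodes Max was at 2.02 and Mxi1 at 1.82, and Mxd4, at -0.61, was within 2-fold. Myc and Mnt turned from lower to higher when levels were taken per barcode, and Mxd1 did so once B-like barcodes were the standard, at 0.24, whereas Mxd3, Mycn, Mxd4 and Max kept their direction on all 5 scales computed (CPM, TMM, totals without ribosomal-protein and mitochondrial genes, per barcode, and per barcode relative to B-like barcodes). Mxi1 turned to -0.03 without ribosomal-protein and mitochondrial genes. Mycl was at 4 and 1 UMIs.

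After γδ TCR signalling, in DN3b γδ+ against DN3a, 1 of the 8 members with a ratio was at least 2-fold higher and 5 were at least 2-fold lower, against 12.8% and 26.7% of 16429 genes. Mxd3 was 47.2-fold higher (log2 ratio 5.56, 5.20 to 5.94). Mxd4 was 10.6-fold lower (-3.40), Myc 3.16-fold lower (-1.66, -1.71 to -1.61), Mxi1 2.38-fold lower (-1.25), and Mycn and Mxd1 both 2.30-fold lower (-1.20). The direction of these 6 was the same on all 5 scales, but the sizes were not, and TMM scaling left 3 of them past 2-fold. Per barcode Mxd3 and Mxd4 stayed past 2-fold, while Myc was at -0.65, Mxi1 at -0.24 and Mycn and Mxd1 both at -0.19. In cycling barcodes alone, between libraries that were 80.8% and 6.16% cycling, Mxd3 was 5.53-fold higher (2.47, 2.09 to 2.87). Mycn was at -0.17 there (-0.75 to 0.46), with an interval that includes 0, and Mxd1 was at -0.52, while Mxd4 (-2.49), Myc (-1.75) and Mxi1 (-1.29) stayed past 2-fold. In non-cycling barcodes Mycn was at -1.12 and Mxd1 at -1.55. Between the B-like barcodes with at most 2 Cd3 UMIs of the same libraries Myc was also lower in DN3b γδ+, at -2.49 (-5.67 to -0.39) from 2 and 15 UMIs, Mxd3 was higher, at 3.41 (0.51 to 8.88) from 8 and 1 UMIs, and Mxd4 was at -0.11 (-0.91 to 0.66). For DN3b γδ- over DN3a these barcodes gave -0.87 (-2.06 to 0.31) for Myc, 2.51 (-0.34 to 7.96) for Mxd3 and 0.05 (-0.57 to 0.69) for Mxd4. The part of free RNA or of a shift common to all cells was not tested. The comparison shares its DN3a library with the preceding one. Side by side, Mycn was 10.9-fold lower in DN3b γδ- and 2.30-fold lower in DN3b γδ+, and Mxi1 differed from DN3a by 0.05 and -1.25 on the log2 scale.

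Between the 2 DN3b populations the largest difference was in Mycn, which was 4.72-fold higher in DN3b γδ+ than in DN3b γδ- (log2 ratio 2.24, 2.05 to 2.43). It was the 1 of 9 members that was at least 2-fold higher, where 13.5% of 17333 genes were. Mxi1 was 2.47-fold lower in DN3b γδ+ (-1.31, -1.39 to -1.23) and Mxd4 2.03-fold lower (-1.02, -1.08 to -0.96), the 2 members past 2-fold in that direction, against 8.73% of genes. Myc was 1.67-fold lower in DN3b γδ+ (-0.74), Max 1.25-fold lower (-0.32), and Mxd3 (-0.08) and Mnt (-0.01) were close to equal. In cycling barcodes alone the log2 ratios were 2.27 for Mycn, -1.29 for Mxi1, -1.04 for Mxd4 and -0.75 for Myc, so these 4 differences were also present between barcodes of the same state. In the B-like barcodes with at most 2 Cd3 UMIs Mxi1 had 0 UMIs in DN3b γδ+ and 7 in DN3b γδ-. Myc was at -1.63 there (-4.82 to 0.52), from 2 and 13 UMIs, and Mxd4 at -0.17 (-0.90 to 0.53). The part of a shift common to all cells was not tested.

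From DN3b γδ- to DN4 γδ-, 1 of 9 members, Mycl, was at least 2-fold higher and none was 2-fold lower, against 11.9% and 5.21% of 18090 genes. The Mycl value rests on 14 and 4 UMIs (log2 ratio 2.28, 0.61 to 4.34) and was -0.10 under the strict barcode rule, which sets 3 limits at once (0 B cell UMIs, at least 2 Cd3 UMIs and at most 5 haemoglobin UMIs), and which of them moved it was not tested. With a minimum of 20 CPM in 1 of the libraries, which leaves Mycl, Mycn, Mnt and Mxd1 out, 0 members passed 2-fold in either direction, against 1.18% of genes. Myc was 1.40-fold higher in DN4 γδ- in CPM (0.48, 0.45 to 0.51), and its log2 ratio was 0.52 per barcode and 0.11 relative to B-like barcodes. Max (-0.32), Mxd3 (-0.25) and Mxi1 (-0.23) were slightly lower in DN4 γδ-.

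From DN3b γδ+ to DN4 γδ+, where the cycling share was lower, 2 of 8 members were at least 2-fold higher and none lower, against 23.8% and 8.37% of 16655 genes. Mxd4 was 8.25-fold higher (log2 ratio 3.04, 2.98 to 3.11) and Mxd1 2.11-fold higher (1.07, 0.98 to 1.17). Mxi1 was at 0.98 and Mnt at 0.73, whereas Mxd3 was at -0.84 and Myc at -0.64 (-0.73 to -0.56). Relative to the B-like barcodes Mxd1, Mxi1 and Mnt turned lower, at -0.044, -0.14 and -0.39, as did Mxi1 and Mnt per barcode, and Mxd4, Mxd3 and Myc did not. Per barcode Mxd4 was the 1 member at least 2-fold higher, at 2.06, and Mxd3 (-1.82), Myc (-1.62) and Mycn (-1.24) were 3 at least 2-fold lower, against 9.02% and 37.1% of genes on that scale. Within state Mxd4 was at 2.19 in cycling and 1.96 in non-cycling barcodes and Myc at -0.48 and -0.86. Mxd3 turned higher in cycling barcodes, at 0.36 (0.29 to 0.43), and Mxd1 was at 0.58 in cycling and 1.57 in non-cycling barcodes. In the B-like barcodes with at most 2 Cd3 UMIs Myc was higher in DN4 γδ+, at 2.40 (0.34 to 5.55) from 18 and 2 UMIs. Mxd3 was lower there, at -3.77 (-9.24 to -0.87) from 1 and 8 UMIs. With no limit on Cd3 UMIs Myc was at -0.36 (-1.22 to 0.45), from 19 and 42 UMIs, and Mxd3 at -2.49 (-3.86 to -1.37).

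Between the 2 DN4 populations, DN4 γδ+ held 3.63-fold less Myc than DN4 γδ- (log2 ratio -1.86, -1.94 to -1.78). Mycn was 3.98-fold higher in DN4 γδ+ (1.99, 1.72 to 2.26), Mxd4 3.79-fold higher (1.92) and Mxd1 2.83-fold higher (1.503). With Mycl, at 1 and 14 UMIs and an interval that includes 0, 3 of 9 members were at least 2-fold higher and 2 lower, against 27.7% and 11.9% of 17369 genes. With a minimum of 20 CPM, which leaves Mycn, Mycl, Mnt and Mxi1 out, 3 members passed 2-fold in either direction, against 27.3% of genes. The Myc difference was also present within state, at -1.72 in cycling and -1.92 in non-cycling barcodes, and Mycn was at 2.38 (2.04 to 2.72, from 118 and 195 UMIs) and 2.44 (0.84 to 4.74, from 90 and 3 UMIs). The ratio of Mxd4 was 1.07 in cycling and 0.64 in non-cycling barcodes and that of Mxd1 1.07 and 0.92, and Mxd3, at -0.67 over all barcodes, was at 0.57 in cycling ones. Per barcode 0 of 9 members were at least 2-fold higher and 5 were lower, against 10.9% and 47.5% of genes on that scale. Mycn was then at 0.76, Mxd4 at 0.69 and Mxd1 at 0.27, and Myc (-3.09), Mycl (-3.23), Mxd3 (-1.90), Mxi1 (-1.33) and Max (-1.25) were the 5 lower. Relative to B-like barcodes Mycn was at 0.54, Mxd4 at 0.47 and Mxd1 at 0.05. Between the B-like barcodes with at most 2 Cd3 UMIs Myc was at 0.18 (-0.98 to 1.41), from 18 and 11 UMIs, and Mxd4 at 0.76 (-0.01 to 1.59). With no limit on Cd3 UMIs Myc was at -1.07 (-1.91 to -0.30), from 19 and 56 UMIs, and Mxd4 at 1.15 (0.61 to 1.70).

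Loss of LAT was compared at DN3. In Lat-/- DN3 γδ- against DN3a, 1 of 8 members, Mxd3, was at least 2-fold higher and none was 2-fold lower, against 7.83% and 6.72% of 15514 genes. The Mxd3 ratio was 6.31-fold (log2 2.66, 2.26 to 3.07) at cycling shares of 8.87% and 6.16%. Myc was 1.77-fold lower in Lat-/- DN3 γδ- (-0.82, -0.89 to -0.76), Mxd4 1.74-fold higher (0.80), Max 1.62-fold higher (0.70) and Mycn 1.43-fold higher (0.52), and these 4 kept their direction on all 5 scales. Between the B-like barcodes with at most 2 Cd3 UMIs of the same libraries the log2 ratio of Mxd4 was 0.56 (-0.02 to 1.17), from 81 and 36 UMIs, and that of Myc was -0.06 (-1.07 to 0.99), from 22 and 15, and the part of a shift common to all cells was not tested for them either. With a minimum of 20 CPM, which leaves Mxd3, Mycn, Mycl and Mxi1 out, 0 members passed 2-fold in either direction, against 2.84% of genes. Within cycling barcodes Mxd3 was at 44.2 CPM in Lat-/- DN3 γδ- and 10.7 CPM in DN3a, from 349 and 57 UMIs. In the same barcodes Aurka, a gene of mitosis, was at 61.1 and 10.1 CPM (log2 ratio 2.60, against 2.05 for Mxd3), so cycling barcodes of DN3a also differed from those of the other library in a gene of the cycle, as they did from both DN3b libraries (2.59 and 2.23). The part of this in the Mxd3 ratios within cycling barcodes was not tested. Within cycling barcodes Myc was at -1.16 and Mycn at 1.20 (0.55 to 1.91), both past 2-fold, and within non-cycling barcodes they were at -0.76 and 0.49. Genotype, reporter, bead depletion, sort scheme and library cannot be told apart here.

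In Lat-/- DN3 γδint against Lat-/- DN3 γδ-, Mxd3 was again the 1 of 8 members past 2-fold and none was lower, against 7.58% and 7.01% of 15139 genes. It was 5.61-fold higher (log2 ratio 2.49, 2.32 to 2.66), at a cycling share of 23.3% against 8.87%, and in cycling barcodes alone it was at 1.12 (0.95 to 1.29). Mxi1 was at 0.37 and Myc at 0.39, and Mxd4 at -0.01 (-0.05 to 0.03). In the B-like barcodes with at most 2 Cd3 UMIs Myc was at 1.002 (0.12 to 1.90), from 25 and 22 UMIs, and the part of a shift common to all cells was not tested. The ribosomal-protein share was 18.2% against 27.7% of UMIs, and without ribosomal-protein and mitochondrial genes in the total Max turned from 0.14 to -0.06.

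Against WT DN3b γδ+, Lat-/- DN3 γδint held 18.2-fold more Mxd4 (log2 ratio 4.19, 4.12 to 4.25), 2.80-fold more Mycn (1.49), 2.77-fold more Mxi1 (1.47), 2.35-fold more Myc (1.23) and 2.07-fold more Mxd1 (1.05). These were 5 of 8 members at least 2-fold higher and none was lower, against 33.7% and 10.6% of 15992 genes, and the median over all genes was 0.58. TMM scaling left Mxd4 at 3.45 past 2-fold and brought Myc to 0.49. Per barcode Myc was at 0.09, Mycn at 0.34, Mxi1 at 0.33 and Mxd4 at 3.05, Mxd1 turned to -0.10, and Mxd3 was at -1.56. In cycling barcodes alone Mxd4 was at 2.97, Mxi1 at 1.51, Myc at 0.98, Mycn at 0.83 and Mxd1 at 0.36, and Mxd3, at -0.42 over all barcodes, was at 0.70. In non-cycling barcodes alone Mxd4 was at 3.26, Mxi1 at 1.37 and Myc at 1.17, between libraries with cycling shares of 23.3% and 80.8%. In the same barcodes Mxd1 was 3.32-fold higher (27.6 against 8.30 CPM), and Mycn was also higher in Lat-/- DN3 γδint. The B-like barcodes with at most 2 Cd3 UMIs gave 1.01 (0.31 to 1.75) for Mxd4 and 3.44 (1.44 to 6.56) for Myc, the latter from 25 and 2 UMIs. The part of a shift common to all cells was not tested. Genotype, reporter, bead depletion, sort scheme and library cannot be told apart in this comparison either.

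In CPM, cycling and non-cycling barcodes of the same library differed most in Mxd3 and Mxd4, Mycl aside. The state was read from the same barcodes, so these differences are a description, and cycling barcodes were deeper, with median UMIs of 12113 against 7063 in DN3a and of 17885 against 7658 in DN3b γδ-. Mxd3 was at least 2-fold higher in cycling barcodes in 7 of 7 libraries, which 1.26% of 12137 genes were, and Mxd4 at least 2-fold lower in 7 of 7, which 0.247% were. Counting a difference of any size, 1 member was higher in every library and 2 were lower, Mxd4 and Mnt, against 16.6% and 26.6% of genes.

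Mxd3 was at 10.7 CPM in cycling and 0.125 in non-cycling barcodes of DN3a. The pair of levels was 60.5 and 6.87 in DN3b γδ-, 59.0 and 10.1 in DN3b γδ+, 51.0 and 11.2 in DN4 γδ-, 75.6 and 2.73 in DN4 γδ+, 44.2 and 0.373 in Lat-/- DN3 γδ-, and 95.9 and 2.80 in Lat-/- DN3 γδint. The log2 ratios ran from 2.18 in DN4 γδ- to 6.89 in Lat-/- DN3 γδ-. In the 3 mostly cycling libraries 5.14%, 6.29% and 7.12% of non-cycling barcodes held a Mxd3 UMI (DN3b γδ-, DN4 γδ-, DN3b γδ+; median depths 7658, 4438.5 and 7319 UMIs), and 3.63%, 5.71% and 8.33% of their B-like barcodes with at most 2 Cd3 UMIs did (2416, 3295 and 3747 UMIs). The depths differ, and the part of free RNA in the non-cycling Mxd3 level was not tested, so no difference between libraries was drawn from it and the log2 ratios that divide by it carry the same limit.

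Mxd4 was at 61.9 CPM in cycling and 142.5 in non-cycling barcodes of DN3a. It was at 22.7 and 90.2 in DN3b γδ-, 11.0 and 35.7 in DN3b γδ+, 24.0 and 89.3 in DN4 γδ-, 50.2 and 138.9 in DN4 γδ+, 99.1 and 259.8 in Lat-/- DN3 γδ-, and 86.4 and 340.9 in Lat-/- DN3 γδint. The log2 ratios ran from -1.99 to -1.20. Counted per barcode instead, Mxd4 still ranged from -0.75 to 0.02, with DN4 γδ+ as the library above 0, so it was lower in cycling barcodes in 6 of 7 libraries on that scale.

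Myc differed little between the 2 states. Its log2 ratio of cycling over non-cycling was 0.09 in DN3a, -0.27 in DN3b γδ-, -0.24 in DN3b γδ+, -0.06 in DN4 γδ-, 0.14 in DN4 γδ+, -0.32 in Lat-/- DN3 γδ- and -0.43 in Lat-/- DN3 γδint. It was higher in 2 and lower in 5 of 7 libraries in CPM, and between 0.65 and 1.76 higher in all 7 per barcode. Max lay between -0.40 and 0.12 and Mxi1 between -0.63 and 0.08. Mxd1 was lower in cycling barcodes in 6 of 7 libraries, from -1.10 to 0.27, with DN3b γδ+ as the exception. Mnt was lower in 7 of 7, from -0.68 to -0.00, though not under every setting in the closing section, and higher in every library per barcode.

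**Figure D4:**
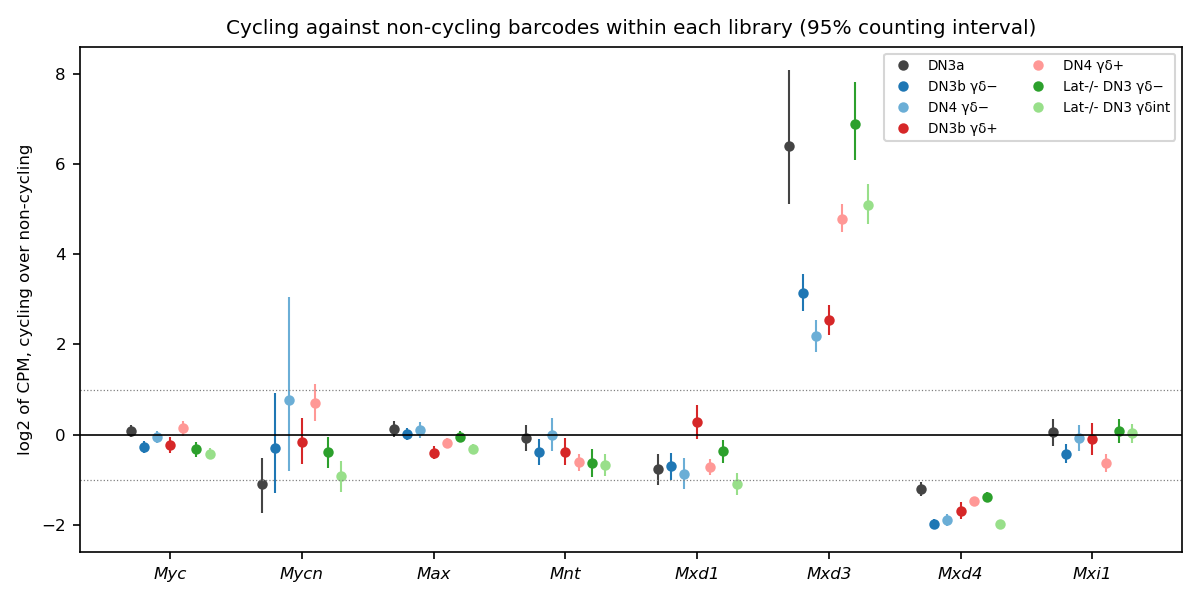
Log2 ratio of CPM in cycling over non-cycling barcodes (vertical axis) for 8 members (horizontal axis; Mycl is left out for its low counts), with 1 point per library, vertical lines for the 95% counting interval and dotted lines at 2-fold. Mxd3 lies above the upper dotted line and Mxd4 below the lower one in all 7 libraries, while Myc, Max and Mnt lie between the lines.

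Within a library Myc was also read by Tfrc, which encodes CD71. Barcodes with at least 2 Tfrc UMIs and barcodes with 0 held 113.7 and 94.9 CPM of Myc in DN3a, 51.6 and 51.3 in DN3b γδ-, 32.2 and 29.7 in DN3b γδ+, 71.7 and 71.3 in DN4 γδ-, 18.5 and 19.8 in DN4 γδ+, 53.5 and 55.4 in Lat-/- DN3 γδ-, and 58.7 and 75.5 in Lat-/- DN3 γδint. The log2 ratios of CPM lay between -0.36 and 0.26. Within cycling barcodes they lay between -0.12 and 0.42, and within non-cycling barcodes between -1.11 and 0.35, the lowest in DN3b γδ+ from 22 Myc UMIs in 105 barcodes with at least 2 Tfrc UMIs. Barcodes with at least 2 Tfrc UMIs were also the deeper ones, with median UMIs of 20438 against 14208.5 in DN3b γδ- and of 20416 against 11050 in DN3b γδ+. Per barcode they held more Myc in all 7 libraries, for example 1.18 against 0.724 UMIs in DN3b γδ- and 0.712 against 0.339 in DN3b γδ+. CD71 was itself a marker of the sort.

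The 20 listed Myc targets, genes of ribosome production, metabolism and the cycle, were mostly higher in both DN3b libraries than in DN3a, where Myc was lower in CPM, and mostly lower in DN4 γδ+ than in DN3b γδ+ or DN4 γδ-, where Myc was lower too. In DN3b γδ- against DN3a, 14 of 20 were at least 2-fold higher and 1 was lower, against 9.73% and 28.8% of all genes, with a median log2 ratio of 1.08 against -0.33 over all genes. The 20 include Tfrc, which encodes CD71. The paper used CD71 to tell DN3b γδ- from DN3a cells and describes sorted DN4 γδ- cells as CD71+. The Tfrc values of these libraries were thus tied to the sort. The spermidine synthase gene Srm was at 2.08, the Ran exchange factor gene Rcc1 at 2.14 and the nucleolin gene Ncl at 1.51, and the cyclin gene Ccnd2 was the one below, at -1.32. Over the same step Myc was at -0.92 in CPM and 0.29 per barcode. In DN3b γδ+ against DN3a 8 of 20 were at least 2-fold higher, against 12.8% of all genes (median 0.95, all genes -0.28), with Myc at -1.66. From DN3b γδ+ to DN4 γδ+ 15 of 20 were at least 2-fold lower, against 8.37% of all genes (median -1.30, all genes 0.27), with Srm at -2.28 and the chaperonin gene Hspd1 at -2.05, and Myc at -0.64. Between the DN4 populations 15 of 20 were at least 2-fold lower in DN4 γδ+, against 11.9% of all genes (median -1.53, all genes 0.30). Ccnd2 was higher there, at 2.26. Over genes with at least 20 CPM in 1 of the libraries compared, the medians were nearer 0 than over all genes. They were 0.008 in DN3b γδ- and 0.02 in DN3b γδ+ over DN3a. In DN4 γδ+ they were 0.01 over DN3b γδ+ and 0.10 over DN4 γδ-. In Lat-/- DN3 γδ- against DN3a none of 20 passed 2-fold, against 7.83% higher and 6.72% lower of all genes (median 0.14, all genes 0.20), and in Lat-/- DN3 γδint against Lat-/- DN3 γδ- 6 of 20 were at least 2-fold higher, against 7.58% of all genes (median 0.85, all genes 0.14). Within state this count was 1 of 20 in cycling barcodes, against 5.21% (median 0.62), and 2 of 20 in non-cycling barcodes, against 5.52% (median 0.71). Between the other pairs of libraries at most 1 target passed 2-fold in a direction, namely Tfrc at -1.13 and Polr1b at 1.30 in Lat-/- DN3 γδint over DN3b γδ+ (10.6% of all genes lower and 33.7% higher), Ccnd2 at -1.17 in DN4 γδ- over DN3b γδ- (5.21% lower) and Polr1b at -1.02 in DN3b γδ+ over DN3b γδ- (8.73% lower). These values describe libraries of unlike cycling share, and in the 4 comparisons with DN3a or DN4 γδ+ among the WT libraries the medians were nearer 0 between cycling barcodes. In cycling barcodes alone 0 of 20 targets were at least 2-fold higher in DN3b γδ- than in DN3a, against 4.12% of all genes (median 0.46, all genes -0.24), and 0 of 20 in DN3b γδ+, against 6.58% (median 0.13, all genes -0.20). Against DN3b γδ+ 6 of 20 were at least 2-fold lower in cycling DN4 γδ+ barcodes, against 4.25% (median -0.72, all genes 0.16), and against DN4 γδ- 9 of 20 were, against 6.03% (median -0.94, all genes 0.26). In non-cycling barcodes alone 10 of 20 targets were at least 2-fold higher in DN3b γδ- than in DN3a, against 8.78% of all genes (median 0.99, all genes -0.16), and 9 of 20 in DN3b γδ+, against 11.8% (median 0.96, all genes -0.15). In non-cycling DN4 γδ+ barcodes 16 of 20 were at least 2-fold lower than in DN3b γδ+, against 12.0% (median -1.74, all genes 0.20), and 15 of 20 than in DN4 γδ-, against 17.7% (median -1.63, all genes 0.12).

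**Figure D5:**
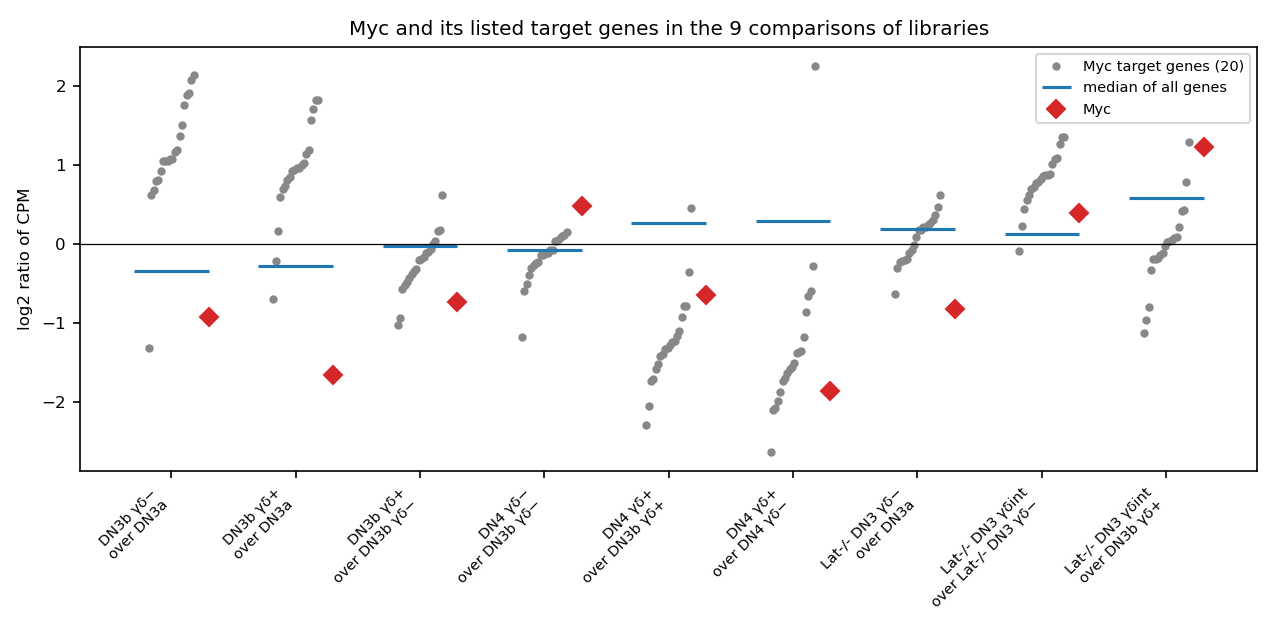
Log2 ratio of CPM (vertical axis) in the 9 comparisons of libraries (horizontal axis) for 20 listed Myc targets (grey points), for Myc (red diamonds) and as a median over all genes (blue lines). In DN3b γδ- and DN3b γδ+ over DN3a most targets lie above 0 while Myc lies at -0.92 and -1.66, and in the 2 comparisons of DN4 γδ+ with DN3b γδ+ and DN4 γδ- most targets and Myc lie below 0.

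Of the 6 corepressor genes, which serve the Mxd and Mnt proteins, none passed 2-fold in DN3b γδ- over DN3a (median 0.05). In that comparison 9.73% of all genes were at least 2-fold higher and 28.8% lower. Sap30 was at -1.12 in DN4 γδ+ over DN4 γδ-, where 11.9% of all genes were at least 2-fold lower. Sin3b was at 1.04 in Lat-/- DN3 γδint over DN3b γδ+, where 33.7% were at least 2-fold higher. Within state Sap30 was within 2-fold between the DN4 libraries, at -0.71 in cycling and -0.90 in non-cycling barcodes. Sin3b was at 1.12 and 0.86. Of the 9 Myc cofactor genes, Ruvbl2 at 1.01 and Wdr5 at 1.04 were at least 2-fold higher in DN3b γδ- than in DN3a, against 9.73% of all genes (median 0.62), though at 0.48 and 0.56 in cycling and 0.73 and 0.96 in non-cycling barcodes, and in DN4 γδ+ against DN4 γδ- Kat2a at -1.07, Ruvbl1 at -1.17 and Ruvbl2 at -1.08 were at least 2-fold lower, against 11.9% (median -0.53), at -0.82, -0.75 and -0.63 in cycling barcodes. Kat2a was also at -1.01 in DN4 γδ+ over DN3b γδ+, against 8.37%, and no other cofactor passed 2-fold in the 9 comparisons over all barcodes. In non-cycling barcodes 3 of 9 cofactors were at least 2-fold lower in DN4 γδ+ than in DN3b γδ+, against 12.0% of all genes (median -0.83, all genes 0.20). Than in DN4 γδ- 2 of 9 were, against 17.7% (median -0.39, all genes 0.12). In non-cycling Lat-/- DN3 γδint over WT DN3b γδ+ barcodes the median of the 9 cofactors was 0.50, against 0.58 over all genes. Among the genes of Myc turnover described here, Aurka at 3.74 and Skp2 at 1.88 were higher in DN3b γδ- than in DN3a, where 9.73% of all genes passed 2-fold, and none was 2-fold lower, with the ubiquitin ligase gene Fbxw7 at -0.17. Aurka at 3.34 and Skp2 at 1.21 were higher in DN3b γδ+ than in DN3a (12.8% of all genes), Aurka at 1.72 and Skp2 at 1.03 in Lat-/- DN3 γδ- than in DN3a (7.83%), and Aurka at 1.56 in Lat-/- DN3 γδint than in Lat-/- DN3 γδ- (7.58%). Skp2 was lower in DN4 γδ+ than in DN3b γδ+, at -1.45 (8.37% of all genes), and Skp2 at -1.77 and Aurka at -1.11 were lower in DN4 γδ+ than in DN4 γδ- (11.9%). Fbxw7 was at 1.51 and Gsk3b at 1.12 in Lat-/- DN3 γδint over WT DN3b γδ+ (33.7%). Several of these differences were smaller or absent between cycling barcodes. Aurka was there at 2.59 in DN3b γδ- and 2.23 in DN3b γδ+ over DN3a, at 2.60 in Lat-/- DN3 γδ- over DN3a, at 0.54 in Lat-/- DN3 γδint over Lat-/- DN3 γδ- and at 0.06 (-0.02 to 0.14) in DN4 γδ+ over DN4 γδ-. Skp2 was at 0.72 in DN3b γδ-, 0.09 (-0.17 to 0.36) in DN3b γδ+ and 0.76 in Lat-/- DN3 γδ- over DN3a, and DN4 γδ+ was at -0.63 over DN3b γδ+ and -0.93 over DN4 γδ-, all within 2-fold. In non-cycling barcodes Aurka was at -2.03 and Skp2 at -2.09 in DN4 γδ+ over DN4 γδ-. Of the 4 listed genes Mlx, Mlxip, Mlxipl and Mga, none passed 2-fold in DN3b γδ- over DN3a. There 9.73% of all genes were at least 2-fold higher and 28.8% lower. Mga was at -1.09 in DN3b γδ+ over DN3a, where 26.7% of all genes were at least 2-fold lower. Within state Mga was within 2-fold in that comparison, at -0.97 in cycling and -0.92 in non-cycling barcodes. Mga at 1.30 and Mlxip at 1.35 were higher in Lat-/- DN3 γδint than in WT DN3b γδ+. There 33.7% of all genes were at least 2-fold higher and the median over all genes was 0.58. Mlxipl was at 2.05 there (-0.28 to 4.27), from 4 and 5 UMIs, an interval that includes 0.

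For each member with at least 20 CPM in 1 of the 14 sums of library and state, the genes most like it were found by Pearson's r of log2(CPM + 1) over the 14 sums, among 7378 genes. The sums are in pairs from the same 7 libraries, split by Mki67 and Top2a UMIs, so r is a description. For genes that follow the cycle a high r is in part set by that split. Mxd3 was most like the spindle genes Nusap1 (r = 0.997), Kif11 (r = 0.996) and Kif15 (r = 0.995). For Mxd4 the nearest were Rabac1 (r = 0.982), Ranbp10 (r = 0.974) and N4bp2l1 (r = 0.971), and for Mxd1 they were Tnrc6b (r = 0.969), Stat3 (r = 0.968) and Amn1 (r = 0.967). Myc was nearest to the RNA-binding protein gene Larp1 (r = 0.944), Slc25a37 (r = 0.928) and Dgkeos (r = 0.909), Max to Prkag2 (r = 0.963), Mnt to Vps13c (r = 0.967) and Mxi1 to Thy1 (r = 0.920). Among the members, Mxd1 and Mxd4 had r = 0.880, Mnt and Mxd1 r = 0.829, and Mxd3 and Mnt r = -0.770, whereas Myc and Mxd3 had r = -0.296.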

How the data were processed

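Thymocyte libraries were made with the 10x Genomics 3' v3 kit. Per the labels the authors used Cell Ranger 5.0.1 on mm10 with an added Trdc-GFP feature, whereas the file headers name version 4.0.0. The deposited files hold UMI counts per gene and barcode, not normalized, and each barcode list was already called. The labelled R 3.6.3 and Seurat 3.1.5 made no value used here. Barcodes were filtered as stated above. The B cell rule limited only doublets of a thymocyte with a B cell. No doublet caller was run, and doublets of thymocytes with each other were not removed. Counts were summed per library and divided by the total (CPM). Exact Poisson, Clopper-Pearson and conditional binomial intervals (95%) cover counting error only, and the ratio code was tested on simulated data. A count of 0 entered ratios as 3 counts. TMM factors came from edgeR 4.0.16 on R 4.3.3, the rest from matplotlib 3.10.9, pandas 2.3.3, scipy 1.17.1 and numpy 2.4.6 under Python 3.11.15. Levels were not compared between genes, except as shares of repressor UMIs and Myc per repressor UMI, which were set against each other between libraries. The members, lists, motifs and alternatives were chosen with earlier results of these data known. All 9 members are named, listed genes where past 2-fold or as an example of the list, and likeness by the highest r. A result of the turnover list is not reported here. Scaling per barcode, scaling to B-like barcodes, the limit of 4 B cell UMIs and the alternatives of the Myc ratio were added after seeing the data.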

Additional observations from a re-analysis of the deposited data

Results flagged for a closer look

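Some members differed in opposite directions under the same contrast, with counting intervals on either side of 0. With 1 library per group these differences between contrasts were not tested. From DN3b to DN4, Myc was at 0.48 on the log2 scale in γδ- and -0.64 in γδ+ cells, Mxd1 at -0.10 and 1.07, and Mxi1 at -0.23 and 0.98. The Myc values kept their signs on every scale tried, while those of Mxd1 and Mxi1 in γδ+ cells turned below 0 relative to the B-like barcodes, Mxi1 also per barcode. From DN3a to DN3b, Max was at 0.25 in γδ- and -0.066 in γδ+ cells, and per barcode it was higher in both. Between cycling and non-cycling barcodes, Mycn was at -1.10 in DN3a, -0.39 in Lat-/- DN3 γδ- and -0.93 in Lat-/- DN3 γδint, but at 0.71 in DN4 γδ+. Mycn was read there from 25 UMIs in the cycling barcodes of DN3a. Groups of 1 library allow no check for a library that lies apart from its replicates.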

How the results depend on the processing

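No paired analysis was possible because each group has 1 library. With no replicates, the values describe these libraries only, and members under 1 CPM are limited by depth. Of 99 recounts of the members past 2-fold 84 stayed within 1.5 times the first count. Shares of all genes under these settings are given above only for some, so the recounts are not read as a trait of the members. For DN3b γδ+ over DN3a (6 members) the count was 3 with TMM scaling, 2 per barcode and 3 per barcode relative to B-like barcodes. The last scale gave 5 for DN3b γδ+ over DN3b γδ- (from 3). DN4 γδ- over DN3b γδ- (from 1) gave 0 under the strict thymocyte rule (0 B cell UMIs, at least 2 Cd3 UMIs, at most 5 haemoglobin UMIs) and 0 with a minimum of 20 CPM. DN4 γδ+ over DN3b γδ+ (from 2 higher, 0 lower) gave 4 as a mean over barcodes and 4 without the deepest 8% of barcodes (3 higher, 1 lower in both), 4 per barcode (1 higher, 3 lower) and 5 relative to B-like barcodes (1 higher, 4 lower). Per barcode the total also hides turns for DN4 γδ+ over DN4 γδ- (3 higher, 2 lower to 0 and 5 on both such scales) and DN3b γδ- over DN3a (1 higher, 3 lower to 3 and 2, and 4 and 1 relative to B-like barcodes). With 20 CPM as the minimum DN4 γδ+ over DN4 γδ- gave 3 (from 5) and Lat-/- DN3 γδ- over DN3a 0 (from 1). Lat-/- DN3 γδint over DN3b γδ+ (from 5) gave 2 with TMM scaling and on both scales per barcode (1 higher, 1 lower in each). Members lower in cycling barcodes in every library (2, Mxd4 and Mnt) were 4 under an S-phase rule. They were 1, Mxd4 without Mnt, under the strict rule, without the deepest 8%, as a mean over barcodes and with up to 4 B cell UMIs. Per barcode 0 were lower and 6 higher (from 1), on a scale that also holds the greater depth of cycling barcodes. The share of all genes on that scale is not given here, so the 6 are not read as a trait of the members. Over all barcodes Myc per repressor UMI gave the same order of the 7 libraries under all 6 alternatives, whereas the order changed within state (DN3a at 0.797 above DN4 γδ- at 0.642 in cycling barcodes). It was 0.474 in DN3a without the quality filter, 0.450 without the deepest 8% and 0.437 as a mean over barcodes. That mean gave 0.410 in DN3b γδ-, 0.344 in DN3b γδ+, 0.605 in DN4 γδ-, 0.168 in Lat-/- DN3 γδ- and 0.195 in Lat-/- DN3 γδint. Without the deepest 8% it was 0.0936 in DN4 γδ+ and 0.175 in Lat-/- DN3 γδ-. Of 28 log2 ratios past 2-fold, 3 changed sign under 1 scaling: Mxd1 at 0.24 in DN3b γδ- over DN3a and -0.044 in DN4 γδ+ over DN3b γδ+ relative to B-like barcodes, and -0.10 in Lat-/- DN3 γδint over DN3b γδ+ per barcode. Mycl turned to -0.10 in DN4 γδ- over DN3b γδ- under the strict rule. Within libraries, per barcode, Mxd1 turned to 0.13 in Lat-/- DN3 γδint and Mxd4 to 0.022 in DN4 γδ+. TMM factors ranged from 0.816 in DN4 γδ- to 1.40 in Lat-/- DN3 γδint. The cause of these moves was not tested.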
